A study of Mus musculus with 12 samples.

Results

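The 10 genes described here encode proteins that neutrophils and their precursors pack into granules or hold in the cytosol. They were chosen by symbol from a deposited table of 47643 genes: Mpo, Elane, Prtn3 and Ctsg of the primary granules, Camp, Ngp and Ltf of the secondary granules, S100a8 and S100a9 of the cytosol, and Lyz2, a lysozyme of several granule types that macrophages also make. All 10 were found and all 10 passed the filter of a mean of at least 1 TPM, the unit of the table (reads per length of the gene, scaled so that each library has the same total). Granule genes are switched on in steps as neutrophils form in the marrow. Primary granule genes come on at the promyelocyte stage, secondary granule genes at the myelocyte and metamyelocyte stages, and S100a8 and S100a9 build up toward the mature cell. C/EBPα, PU.1, GFI1 and C/EBPε are known regulators of these steps.

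The libraries came from common lymphoid progenitors (CLPs), rare marrow cells that give rise to lymphocytes, sorted from male mice aged 27 to 32 weeks. There were 4 WT mice (numbered 6, 8, 10 and 11), 4 ∆Firre mice (8, 9, 11 and 12) that lack the Firre noncoding RNA locus in every cell, and 4 Firre rescue mice (1 to 4). The ∆Firre allele was made by deleting a floxed locus with a CMV-Cre line in the germline and was crossed to C57BL/6J. The rescue mice carried the same deletion together with a doxycycline-responsive Firre cDNA transgene and a CAG-driven rtTA3 transactivator, and were fed doxycycline, so their Firre RNA came from a transgene and not from its own locus. Doxycycline is not given in the sources used here for the WT and ∆Firre mice. Each library was 1 mouse, and poly(A)+ RNA was sequenced.

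Firre, the deleted gene, was at 25.2 to 31.6 TPM in the 4 WT libraries, at 0 in the 4 ∆Firre libraries, and at 59.9 to 174 TPM in the 4 rescue libraries. Reads recovered from the spacing of the values numbered 10991270 to 18176084 in WT, 14371984 to 17599318 in ∆Firre, and 25783012 to 32574243 in rescue. Of 16 lymphoid progenitor genes, all were measured above the filter, and their summed level ran from 6464 to 10712 TPM over the 12 libraries. Ly6g, the surface marker of mature neutrophils, was at 0 in 6 of the 12 libraries and reached 3.02 TPM at most.

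Sequences just before the start of the genes are shown for the 5 members that were near 0 in the same 3 libraries, as described below. RefSeq promoters (GRCm38.p6, 250 bases before to 50 after the annotated start) were matched for all 10 members. Capitals mark the letters TTGCNNAA of the C/EBP motif or TATAAA of the TATA box, on either strand.

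Ngp, chr9:110419558-110419857, plus strand: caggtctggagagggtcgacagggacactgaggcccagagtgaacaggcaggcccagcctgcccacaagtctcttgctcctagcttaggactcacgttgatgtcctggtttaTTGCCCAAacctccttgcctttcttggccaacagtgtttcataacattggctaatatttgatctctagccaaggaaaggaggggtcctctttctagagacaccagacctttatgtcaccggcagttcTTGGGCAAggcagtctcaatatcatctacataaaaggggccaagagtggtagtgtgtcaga

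Ltf, chr9:111019042-111019341, plus strand: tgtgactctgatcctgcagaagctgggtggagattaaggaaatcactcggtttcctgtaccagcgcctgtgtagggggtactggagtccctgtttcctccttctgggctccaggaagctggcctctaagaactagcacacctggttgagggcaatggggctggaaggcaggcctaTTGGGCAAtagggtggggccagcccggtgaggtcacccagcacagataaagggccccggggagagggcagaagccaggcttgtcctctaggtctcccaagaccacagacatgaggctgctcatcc

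Camp, chr9:109849407-109849706, minus strand: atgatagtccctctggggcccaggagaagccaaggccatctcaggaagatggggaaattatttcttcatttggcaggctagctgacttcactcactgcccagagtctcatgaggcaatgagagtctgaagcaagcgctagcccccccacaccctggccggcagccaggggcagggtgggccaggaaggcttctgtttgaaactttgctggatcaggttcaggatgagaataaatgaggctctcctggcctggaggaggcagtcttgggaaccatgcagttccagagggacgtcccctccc

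S100a8, chr3:90668821-90669120, plus strand: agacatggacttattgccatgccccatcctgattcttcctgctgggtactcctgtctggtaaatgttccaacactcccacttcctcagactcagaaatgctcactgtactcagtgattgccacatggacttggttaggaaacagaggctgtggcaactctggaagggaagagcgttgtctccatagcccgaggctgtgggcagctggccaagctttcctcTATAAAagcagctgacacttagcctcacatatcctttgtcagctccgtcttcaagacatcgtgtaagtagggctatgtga

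S100a9, chr3:90695672-90695971, minus strand: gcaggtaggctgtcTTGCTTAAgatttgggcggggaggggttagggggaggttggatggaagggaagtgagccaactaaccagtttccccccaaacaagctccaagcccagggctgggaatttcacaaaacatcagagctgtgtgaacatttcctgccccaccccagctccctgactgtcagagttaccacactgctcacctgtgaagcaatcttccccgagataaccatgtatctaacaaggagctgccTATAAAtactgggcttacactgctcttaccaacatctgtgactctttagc

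The C/EBP letters TTGCNNAA stood in 3 of the 10 member promoters against 10.8% of 32851 mouse promoters of the same length. Ngp held them at positions −138 and −11 from the annotated start, Ltf at −75, and S100a9 at −236. TATAAA stood in S100a8 at −30, in S100a9 beginning at the annotated start and in Ctsg on the other strand at −237, which is 3 of 10 promoters against 13.6% of all. The letters GAGGAA, bound by PU.1 and other ETS factors, stood in 6 of 10 (Ctsg, Elane, Ltf, Mpo, Prtn3 and S100a8) against 28.3%, and AACNG, bound by Myb, in 10 of 10 against 80.3%. In Ltf the ETS match shares a base with a Myb match. A match describes these letters only, and binding was not measured.

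Several members are neighbors in the genome. S100a8 (chr3:90669071-90670034) and S100a9 (chr3:90692630-90695721) lie 22.6 kb apart with 0 annotated genes between them, and Prtn3 (chr10:79879667-79883174) and Elane (chr10:79886312-79888216) lie 3.14 kb apart, also with 0 genes between them. The 3 secondary granule genes all lie on chromosome 9, with 18 genes between Camp (chr9:109847377-109849456) and Ngp (chr9:110419808-110423012) and 25 between Ngp and Ltf (chr9:111019292-111042766). Mpo (chr11:87793784-87804412), Ctsg (chr14:56099885-56102574) and Lyz2 (chr10:117277541-117282272) lie elsewhere. These are GRCm38.p6 positions from RefSeq, the assembly behind the mm10 build used for mapping.

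Granule transcripts fell into genes read in every library and genes that were near 0 in 1 library of each group. Mpo, Ctsg, Prtn3, Lyz2 and Elane were read in all 12 libraries, although Elane had 4 reads in ∆Firre 8. Camp, Ngp, Ltf, S100a8 and S100a9 had at most 5 reads each in WT 6, ∆Firre 8 and Firre rescue 3, and were plain in the other 9 libraries. The SD of these 5 genes within each group was of the same order as the mean.

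**Figure D1:**
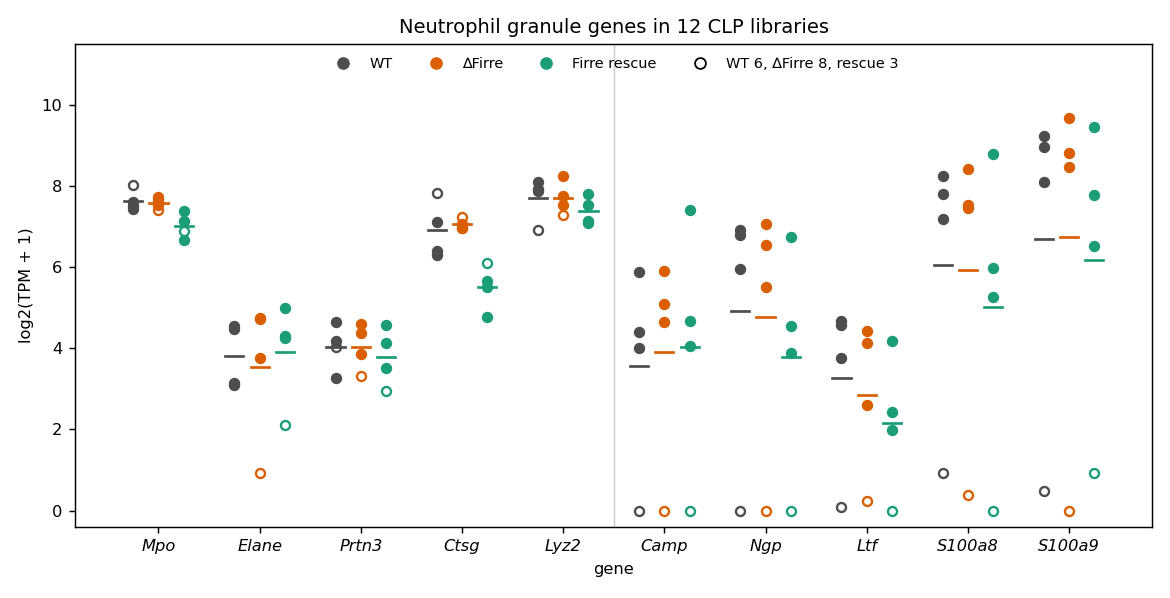
Level of each of the 10 genes in each library, as log2(TPM + 1), with 1 point per library, colors for the 3 groups and a bar at each group's mean. Open points mark WT 6, ∆Firre 8 and Firre rescue 3, which lie at 0.93 or less for Camp, Ngp, Ltf, S100a8 and S100a9, while Mpo lies between 6.68 and 8.03 in all 12 libraries.

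Mpo encodes myeloperoxidase, which makes hypochlorous acid from hydrogen peroxide and chloride. Its level was 260, 181, 171 and 193 TPM in WT 6, 8, 10 and 11, 168, 201, 185 and 210 TPM in ∆Firre 8, 9, 11 and 12, and 139, 102, 118 and 166 TPM in rescue 1 to 4. The WT and ∆Firre libraries overlapped, and every rescue library lay below all 8 of them, the highest rescue library only just below the lowest ∆Firre library. Group means were 201 ± 39.9, 191 ± 18.7 and 131 ± 28.0 TPM (SD, n = 4 each).

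Ctsg encodes cathepsin G, a serine protease that basophil and mast cell precursors also make. It stood at 225, 84.0, 77.7 and 137 TPM in WT, at 150, 124, 134 and 124 TPM in ∆Firre, and at 49.4, 44.9, 67.5 and 26.4 TPM in rescue, libraries in the same order as above. Again every rescue library was below every other library, with a clear gap to ∆Firre and a small gap to WT 10. The ∆Firre libraries lay close together, at 133 ± 12.2 TPM against 131 ± 68.2 TPM in WT and 47.1 ± 16.9 TPM in rescue.

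**Figure D2:**
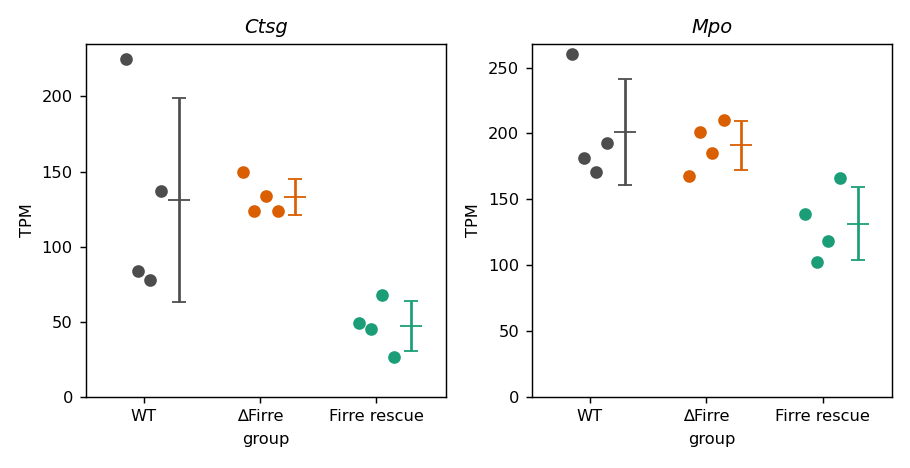
Ctsg and Mpo in TPM, 1 point per library, with the mean and SD of the 4 libraries beside each group. The 4 rescue libraries lie at 26.4 to 67.5 TPM for Ctsg and at 102 to 166 TPM for Mpo, below all WT and ∆Firre libraries.

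Elane encodes neutrophil elastase, the serine protease mutated in forms of congenital neutropenia. Its level was 7.77, 22.6, 7.61 and 21.3 TPM in the WT libraries, 0.892, 25.9, 12.6 and 25.4 TPM in ∆Firre, and 18.7, 18.2, 3.29 and 31.0 TPM in rescue. It was lowest of its group in ∆Firre 8, with 4 reads, and in rescue 3, whereas WT 6 was level with WT 10. The 3 groups overlapped.

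Prtn3, for proteinase 3, a protease close to elastase and its neighbor on chromosome 10, was at 15.4, 24.0, 8.68 and 17.2 TPM in WT, at 8.88, 13.6, 23.3 and 19.9 TPM in ∆Firre, and at 16.6, 22.9, 6.77 and 10.4 TPM in rescue. WT 6, ∆Firre 8 and rescue 3 held 127, 75 and 124 reads of it, so it did not drop out there, and the groups overlapped. The summed level of the 4 primary granule genes ran from 265 to 508 TPM in WT, from 327 to 379 TPM in ∆Firre, and from 188 to 234 TPM in rescue.

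Camp encodes the cathelicidin precursor, the source of an antimicrobial peptide. It was at 0, 15, 20.3 and 57.9 TPM in WT, at 0, 24.0, 33.3 and 58.9 TPM in ∆Firre, and at 167, 24.4, 0 and 15.5 TPM in rescue. Rescue 1 was the highest of all 12 libraries, and rescue 2 and 4 lay within the range of the WT and ∆Firre libraries with reads. In WT 6, ∆Firre 8 and rescue 3 a count of 0 allows up to 3 reads, which is 0.833, 0.812 and 0.374 TPM.

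Ngp encodes neutrophilic granule protein, a cystatin-like protein. Its level was 0, 120, 60.5 and 110 TPM in the WT libraries, 0, 44.5, 92.0 and 132 TPM in ∆Firre, and 106, 13.9, 0 and 22.5 TPM in rescue. The zeros fell in the same 3 libraries, where a count of 0 allows up to 0.516, 0.504 and 0.232 TPM, and rescue 2 and 4 lay below every other library with reads of Ngp.

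Ltf encodes lactoferrin, an iron-binding protein that defines secondary granules. It was at 0.061, 23.0, 12.5 and 24.6 TPM in WT, at 0.178, 5.12, 16.4 and 20.4 TPM in ∆Firre, and at 17.1, 2.96, 0 and 4.43 TPM in rescue. The low values rest on 1 read in WT 6 and 3 reads in ∆Firre 8. Summed over Camp, Ngp and Ltf, there were 1, 3 and 0 reads in WT 6, ∆Firre 8 and rescue 3, and 509 to 2881 reads in the other 9 libraries.

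S100a8 and S100a9 encode the subunits of calprotectin, a calcium- and zinc-binding protein abundant in neutrophil cytosol. S100a9 was at 0.403, 498, 273 and 596 TPM in WT, at 0, 355, 446 and 822 TPM in ∆Firre, and at 704, 90.4, 0.905 and 219 TPM in rescue. S100a8 was at 0.909, 223, 145 and 301 TPM in WT, at 0.296, 183, 174 and 340 TPM in ∆Firre, and at 439, 37.4, 0 and 62.6 TPM in rescue. Both genes followed the secondary granule genes, with 4, 1 and 5 reads of the pair in WT 6, ∆Firre 8 and rescue 3 against 815 to 6139 in each of the others. In those other 9 libraries S100a9 stood at 1.6 to 3.51 times the TPM of S100a8.

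**Figure D3:**
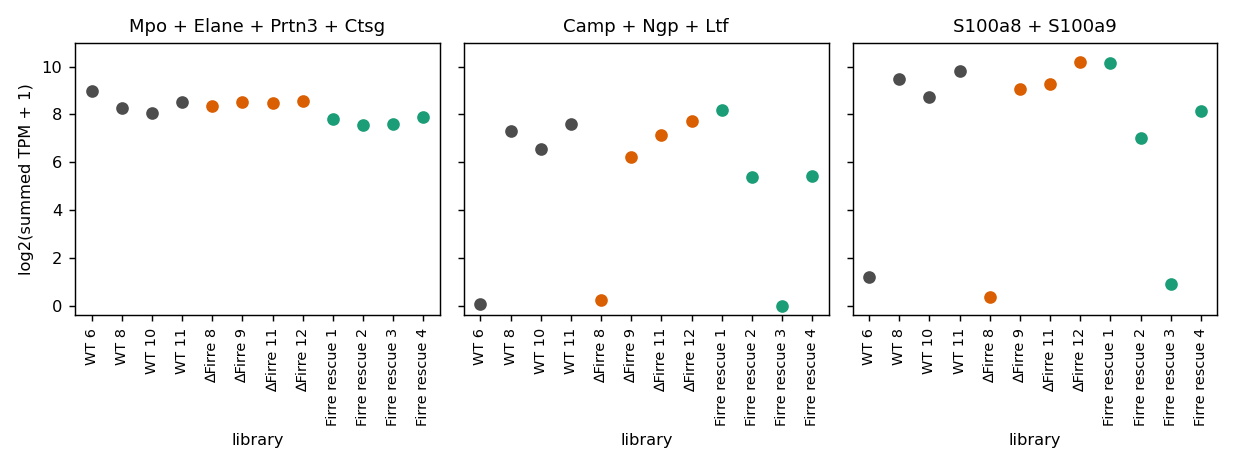
Summed level of the primary granule genes, the secondary granule genes and the S100a8 and S100a9 pair in each library, as log2(summed TPM + 1). The primary sum lies between 188 and 508 TPM in all 12 libraries, while the secondary sum is 0.178 TPM or less and the S100a8 and S100a9 sum 1.31 TPM or less in WT 6, ∆Firre 8 and rescue 3.

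Lyz2 was at 119, 271, 235 and 242 TPM in WT, at 156, 183, 215 and 304 TPM in ∆Firre, and at 184, 224, 136 and 140 TPM in rescue. WT 6, ∆Firre 8 and rescue 3 were the lowest of their groups, but by far less than for the secondary granule genes. Lyz1, a near-identical copy with which Lyz2 could share reads, was at 1.45 TPM or less in every library. Ranked by mean TPM, S100a9 came first and Lyz2 next in all 3 groups, and in no group did any neighbors in the ranking of the 10 genes have ranges that were apart.

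Among the other 9 libraries, S100a8, S100a9, Ngp and Ltf were the members most alike. Ngp stood at 4.47 to 8.68 times the TPM of Ltf in these libraries. Over these 9 libraries, r of log2(TPM + 1) was 0.97 for S100a8 and S100a9, 0.96 for Ltf and Ngp, and 0.94 for S100a9 and Ngp. With S100a9, r was 0.70 for Mpo, 0.59 for Camp, 0.56 for Ctsg and 0.13 for Elane. With Ngp, r was 0.65 for Ctsg, 0.64 for Mpo and 0.49 for Camp. These are descriptions over libraries of 3 groups, whose depth also differed by group, and no test was made. The ratio of Mpo to S100a9 was 0.198 to 1.12 in the 9 libraries, 644 in WT 6 and 130 in rescue 3. In ∆Firre 8, 2801 reads of Mpo came with 0 reads of S100a9.

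Rescue 3 was the deepest of all libraries, at 32574243 reads, WT 6 lay inside the WT range at 14576822, and ∆Firre 8 was the shallowest of the ∆Firre libraries at 14371984, beside 15302733 to 17599318 in the other ∆Firre libraries. The library numbers in the labels fall into 3 ranges, of which 1 holds all rescue libraries, and the 3 low libraries came from different ranges. Basophil and mast cell genes (10 genes, among them Mcpt8 and Prss34) summed to 9336 TPM in WT 6 and 4422 TPM in ∆Firre 8, the highest of each group, but to 94.4 TPM in rescue 3, within the 65.0 to 143 TPM of the rescue group. The sort gate for CLPs was lineage-negative, Sca1 low, c-Kit low and IL7Rα-positive, and how many basophils or mast cells passed it was not tested here. The part of these cells in the low granule levels was not tested. The lymphoid progenitor genes summed to 6464 TPM in WT 6 and 7636 TPM in ∆Firre 8, the lowest of each group. In rescue 3 their sum, 10712 TPM, was the highest of the rescue group. In bulk samples, fewer cells of a type and less RNA per cell cannot be told apart.

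Some other granule genes divided in the same way. Of 20 further granule genes, 4 had 0 reads in WT 6, ∆Firre 8 and rescue 3 and reads elsewhere: Chil3, Retnlg and Fcnb, a chitinase-like protein, a resistin-like protein and a ficolin, and Olfm4, which had reads in 3 libraries only. Cd177 had at most 3 reads in each of them. Lcn2, lipocalin 2 of the secondary granules, was at 2.73, 0.547 and 0 TPM there, and Mmp8, a granule collagenase, at 0.429, 0.502 and 0 TPM. Mmp8 was at 7.17 to 9.62 TPM in the other WT libraries and 5.77 to 8.30 TPM in the other ∆Firre libraries, whereas in rescue it was also low in rescue 1 (0.491 TPM), rescue 2 (0.475 TPM) and rescue 4 (1.34 TPM). Lcn2 was at 7.81 to 12.9 TPM in the other WT libraries, 4.19 to 17.0 TPM in the other ∆Firre libraries, and 0.769 to 4.71 TPM in the other rescue libraries. Rescue 4 also had 0 reads of Chil3 and rescue 2 had 0 of Retnlg. Others did not divide in this way. Pglyrp1, a peptidoglycan recognition protein, was the highest of its group in WT 6 (31.9 TPM) and ∆Firre 8 (16.5 TPM), but was at 1.03 TPM in rescue 3, within the range of the rescue libraries. Adam8 was the highest of its group in all 3 libraries (27, 15.4 and 5.85 TPM), although ∆Firre 11 was close to ∆Firre 8 at 15.2 TPM. Cst7 was at 228, 237 and 130 TPM and Hp at 21, 17.6 and 2.32 TPM there, both the lowest of the rescue libraries in rescue 3. The most abundant genes of the list, Serpinb1a, Cst7, Cyba and Prss57, did not drop out in any library, and Serpinb1a, an inhibitor of elastase and cathepsin G, averaged 376 ± 29.5, 386 ± 11 and 351 ± 39.8 TPM in WT, ∆Firre and rescue. Serpinb1a was still the lowest of its group in WT 6 (339 TPM), ∆Firre 8 (371 TPM) and rescue 3 (315 TPM). Mmp9 was also the lowest of its group there, at 3.80, 3.59 and 0 TPM.

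**Figure D4:**
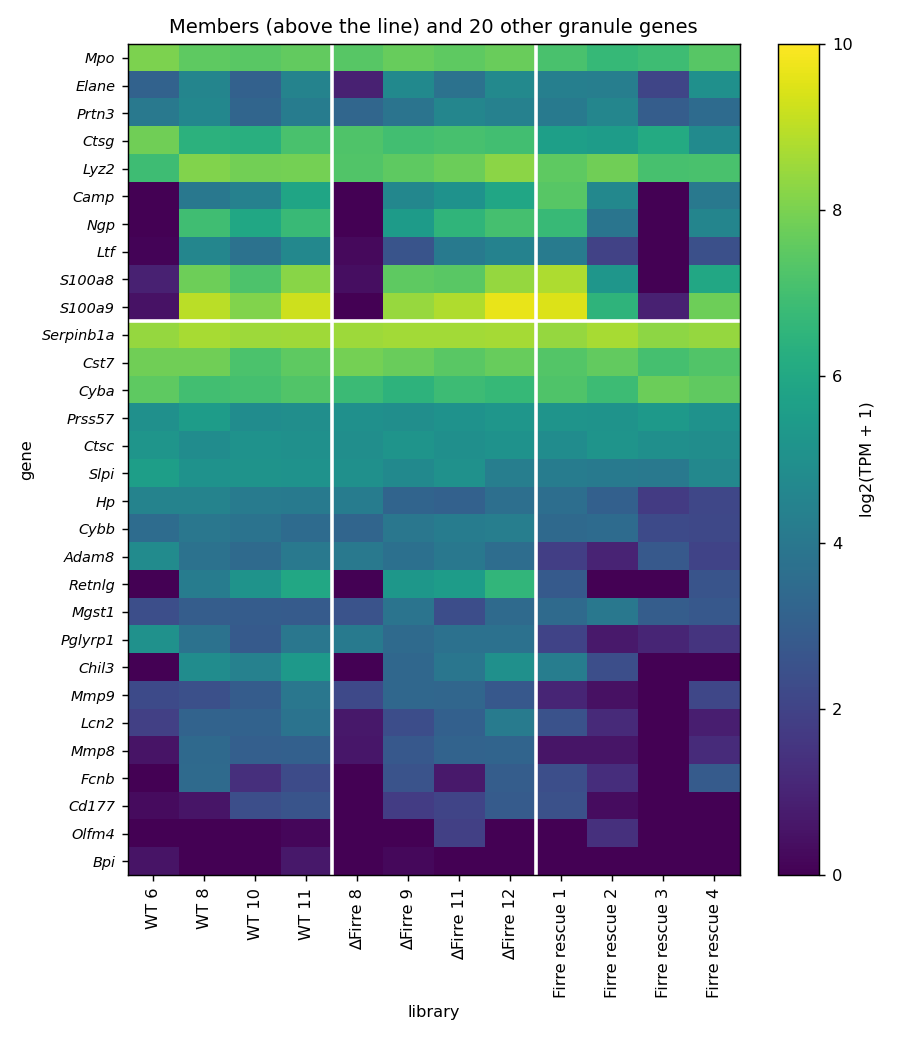
Level of the 10 members (above the white line) and of 20 other granule genes in each library, as log2(TPM + 1) in color, with groups separated by white lines. Camp, Ngp, Ltf, S100a8, S100a9, Retnlg, Chil3 and Fcnb are at or near 0 in WT 6, ∆Firre 8 and rescue 3, and Mpo, Ctsg, Lyz2 and Serpinb1a are not.

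Loss of Firre was then compared with WT. None of the 10 members was called in ∆Firre against WT by limma on log2(TPM + 1), with a call set at 0.1 after Benjamini-Hochberg adjustment, where 3 of 14479 genes were called (0.0207%, with 0.00691% lower and 0.0138% higher). At an unadjusted p under 0.05 the number of members was also 0, beside 5.3% of all genes, and no member had groups that did not overlap, beside 5.33% of genes. In other fits limma-voom on the recovered reads called 0 members and 0 genes. A fit with the range of library numbers as a block called 0 members and 1 gene, which was lower. The log2 fold changes were −0.06 (SE 0.16) for Mpo, 0.15 (SE 0.32) for Ctsg and 0.00 (SE 0.27) for Lyz2. For S100a9, at 0.05 (SE 2.47), and S100a8, at −0.10 (SE 2.16), the SE was larger than the value by far, and changes of several fold were not detectable with these libraries. The median over the members was −0.03, beside −0.06 over all genes tested.

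Rescue was compared with ∆Firre next, and Ctsg and Mpo were lower. Ctsg fell by 1.55 on the log2 scale (SE 0.32, limma adjusted p = 0.00649), and Mpo fell by 0.56 (SE 0.16, limma adjusted p = 0.0288). Their groups did not overlap in TPM, as for 21.9% of all genes. The 2 members of 10 called, both lower, stand beside 27.9% of all genes called (19.3% lower and 8.58% higher), and the 2 with an unadjusted p under 0.05 beside 33.6%, so the share of members called is near the background. The other 8 members were not called, among them Elane at 0.38 (SE 0.82), Camp at 0.12 (SE 1.64), Ltf at −0.70 (SE 1.17) and Lyz2 at −0.31 (SE 0.27). Without ∆Firre 8, Elane (−0.50) and Camp (−1.19) turned below 0. The median was −0.56 over the members and −0.16 over all genes. Without rescue 3, S100a9 (1.18), S100a8 (0.74), Ngp (0.29), Prtn3 (0.037) and Ltf (0.021) turned above 0. Camp and Elane stayed above 0 there, and Ctsg, Mpo and Lyz2 stayed below 0. The median over the members was then above 0, so its sign rests on that library.

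Against WT, which shares the rescue libraries with the comparison above, rescue was lower for the same genes. Ctsg fell by 1.40 on the log2 scale (SE 0.32, limma adjusted p = 0.0119) and Mpo fell by 0.62 (SE 0.16, limma adjusted p = 0.0208). Here 24.3% of all genes were called (19.4% lower and 4.82% higher), 31.3% had an unadjusted p under 0.05, and groups did not overlap for 18% of genes, so 2 of 10 is again near the background. Prtn3 was at −0.24 (SE 0.39), Ngp at −1.12 (SE 1.87) and S100a9 at −0.52 (SE 2.47), none of them called. With WT 6, ∆Firre 8 and rescue 3 left out together, Ctsg fell by 1.68 against ∆Firre and by 1.29 against WT, Mpo fell by 0.57 and by 0.45, and all 4 calls were kept (limma adjusted p from 0.00610 to 0.0956). All rescue libraries come from 1 range of library numbers and are deeper than all others, so group, library range, depth, transgenes and doxycycline cannot be told apart.

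**Figure D5:**
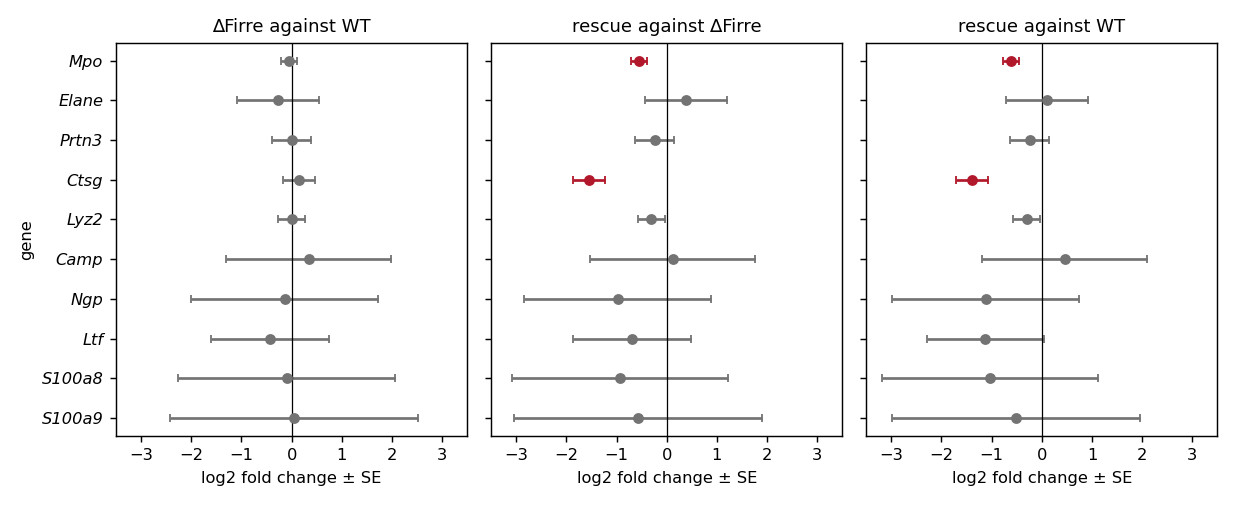
Log2 fold change with its SE for each gene in the 3 comparisons, red where called. Ctsg and Mpo are called lower in rescue against both other groups, and no gene is called in ∆Firre against WT.

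Rescaling matters for the size of the Mpo difference. When each library was rescaled by its median ratio, the median of all genes in rescue moved from −0.16 to −0.05 against ∆Firre and from −0.21 to −0.03 against WT, and higher genes as a share of all calls went from 30.7% to 50.2% and from 19.9% to 50.6%. On that scale Mpo fell by 0.44 against ∆Firre and by 0.43 against WT (limma adjusted p = 0.0660 and 0.0935), and Ctsg fell by 1.43 and 1.21 (limma adjusted p = 0.00878 and 0.0282). Each library was divided by its factor, 0.954 for rescue 4, 1.01 for ∆Firre 8, 1.08 for WT 8 and 1.06 for WT 10. Mpo in rescue 4 then no longer lay below ∆Firre 8, WT 8 and WT 10, so the groups overlapped for Mpo on that scale.

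Genes of other cell types moved with the same comparisons. Counts called in this and later lists stand beside all genes, of which 19.3% were lower and 8.58% higher in rescue against ∆Firre. In rescue against WT the shares were 19.4% and 4.82%. All 10 basophil and mast cell genes were called lower in rescue against ∆Firre and against WT, with medians of −5.15 and −5.22, and their sum was 1105 to 9336 TPM in WT, 2992 to 4422 TPM in ∆Firre and 65.0 to 143 TPM in rescue. Ctsg was highest in WT 6 and, among the ∆Firre libraries, in ∆Firre 8, the libraries with the highest basophil and mast cell sums. In rescue it was highest in rescue 3, whose sum (94.4 TPM) was below those of rescue 1 (111 TPM) and rescue 2 (143 TPM), and in WT the lowest sum (1105 TPM, WT 8) did not go with the lowest Ctsg. The part of these cells in the Ctsg and Mpo differences was not tested. Of 16 lymphoid progenitor genes 9 were called higher and 1 lower in each of the 2 rescue comparisons. Of 15 monocyte and macrophage genes tested, 3 were called higher and 4 lower in both. The sum of this list was 666 TPM in rescue 2, against 356 to 396 TPM in the other rescue libraries and 452 to 516 TPM in the WT and ∆Firre libraries. Rescue 2 also had the highest Lyz2 of the rescue libraries (224 TPM). CLPs were sorted as lineage-negative cells, with CD11b among the targets of the antibody cocktail. How many macrophages passed the gate, and what part they had in that value, was not tested.

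Of the other granule genes, 18 of 20 could be tested. None was called in ∆Firre against WT, 1 was called higher and 6 lower in rescue against ∆Firre (median −0.95), and 8 were called lower in rescue against WT (median −0.92). Over all genes tested, 19.3% and 19.4% were called lower in these 2 rescue comparisons, and the medians were −0.16 and −0.21. Cyba, a subunit of the NADPH oxidase, was the gene called higher, at 167 ± 42.9 TPM in rescue and 105 ± 12.1 TPM in ∆Firre (log2 fold change 0.63, SE 0.18, limma adjusted p = 0.0285). Cst7, an inhibitor of cathepsins, and Prss57, a granule serine protease, were not called in any comparison.

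Regulators and receptors of the granulocyte line were also read. Of 15 tested, none was called in ∆Firre against WT, 1 was higher and 7 lower in rescue against ∆Firre, and 7 were lower in rescue against WT. The shares of all genes called lower in the rescue comparisons were 19.3% and 19.4%. Cebpa, for C/EBPα, was at 61.4 ± 40.0, 41.7 ± 10.7 and 13.1 ± 4.22 TPM in WT, ∆Firre and rescue, and fell by 1.6 against ∆Firre and by 2.0 against WT (limma adjusted p = 0.00829 and 0.00300). Csf3r, the G-CSF receptor, was at 35.7 ± 2.72, 32.9 ± 7.53 and 18.7 ± 6.80 TPM and fell by 0.83 and 0.97 (limma adjusted p = 0.0359 and 0.0207). Csf2rb, a shared cytokine receptor chain, fell by 2.13 and 2.30, and Cd63, a granule membrane protein, fell by 2.94 and 2.84, and basophils also make both. Myb and Irf8, the genes of highest level in this list, overlapped between the groups. Myb was at 604 to 759, 616 to 696 and 560 to 739 TPM in WT, ∆Firre and rescue. Irf8 was at 221 to 280, 171 to 231 and 220 to 340 TPM.

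Gfi1 and Spi1, which encodes PU.1, were not called. Spi1 was called higher in rescue against ∆Firre under 4 alternatives: median ratio rescaling (log2 fold change 0.49, limma adjusted p = 0.0492), quantile normalization (0.45, 0.0679), limma-voom (0.50, 0.0396) and rescue 2 left out (0.47, 0.0835). With the correction for GC content it stood at 0.083 (limma adjusted p = 0.725). Gfi1 was called lower in rescue against WT under 3: WT 6 left out (−0.38, limma adjusted p = 0.0715), rescue 3 left out (−0.34, 0.0878), and WT 6, ∆Firre 8 and rescue 3 left out (−0.44, 0.0421). It stood near 0 with median ratio rescaling (−0.10, limma adjusted p = 0.655), quantile normalization (−0.093, 0.703) and limma-voom (−0.097, 0.727). Gfi1 was at 19.6 to 32.1 TPM in all 12 libraries, with 22.0 in WT 6, 24.4 in ∆Firre 8 and 25.2 in rescue 3, so it did not drop out with the secondary granule genes. Csf3r likewise had 39.2, 23.0 and 17.0 TPM in these 3 libraries. Cebpa stood at 120, 47.0 and 11.4 TPM there, and WT 6 was far above the other WT libraries (34.1 to 53.0 TPM). Over all alternatives the log2 fold change of Cebpa in rescue against WT ran from −2.22 to −1.57. Cebpe, for C/EBPε, lay below the filter, at 1.38 to 2.46 TPM in WT, 0 to 1.62 TPM in ∆Firre and 0 to 0.652 TPM in rescue, with at most 15 reads in any library. It had 10 reads in WT 6, 3 in ∆Firre 8 and 0 in rescue 3, and also 0 in ∆Firre 11 and rescue 4.

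Markers of mature neutrophils were mixed. Ly6g, Fpr1, a formyl peptide receptor, and Stfa2l1, a stefin, had 0 reads in WT 6, ∆Firre 8 and rescue 3, but all 3 were also at 0 in some other libraries and reached at most 3.02, 6.71 and 4.43 TPM. Ccl6 and Cxcr2, a chemokine and a chemokine receptor, were the highest of their groups in WT 6 and ∆Firre 8, at 617 and 253 TPM for Ccl6 and at 127 and 50.9 TPM for Cxcr2, and the lowest in rescue 3. Of 14 such genes 8 could be tested, of which 0 were called in ∆Firre against WT, 4 were lower in rescue against ∆Firre, and 1 was higher and 4 were lower in rescue against WT. Their sum ranged over 288 to 954 TPM among the WT libraries, 328 to 454 among the ∆Firre libraries and 83.0 to 106 among the rescue libraries, with 954 TPM in WT 6, 454 in ∆Firre 8 and 88.1 in rescue 3. Much of it came from genes that other cells share, such as Ccl6, at 256 ± 242 TPM for WT, 207 ± 46.5 TPM in ∆Firre and 4.44 ± 4.85 TPM in rescue. Ccl6 fell by 5.72 against ∆Firre, Cxcr2 by 3.36 and Itgb2, an integrin chain of leukocytes, by 1.19. Over the alternatives the log2 fold change ran from −7.31 to −4.59 for Ccl6, −3.86 to −2.49 for Cxcr2 and −1.24 to −1.07 for Itgb2. Trem1 went the other way, at 5.12 to 10.1 TPM in WT, 7.03 to 14.2 TPM in ∆Firre and 12.9 to 18.7 TPM in rescue. Stfa3 was at 0 in all 12 libraries.

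Genes with the most similar profile were found by r of log2(TPM + 1) with the mean of the members, over the 12 libraries. The 10 closest genes outside the members were Chil3 (r = 0.89), Retnlg (0.85), an unnamed gene ENSMUSG00000103594.1 (0.83), Lcn2 (0.82), 1100001G20Rik (0.82), Fcnb (0.80), Abcb4 (0.80), ENSMUSG00000103835.1 (0.80), Wbscr27 (0.79) and Slfn4 (0.79). After each group's mean was removed, Lcn2 (0.92), Chil3 (0.91), Retnlg (0.91) and Mmp8 (0.88) stood among the 10 closest, with ENSMUSG00000103594.1 first (0.96). The libraries fall into 3 low and 9 others. Over the other 9, with group means not removed, r was 0.87 for Lcn2, 0.82 for Chil3, 0.72 for Retnlg and 0.29 for Fcnb. Of the members themselves, each of which is part of that mean, S100a8, S100a9 and Ngp were at 0.99, Ltf at 0.97, Camp at 0.95, Elane at 0.82, Lyz2 at 0.78 and Prtn3 at 0.63, whereas Mpo was at 0.16 and Ctsg at −0.16.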

How the data were processed

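CLPs were sorted by FACS and sequenced with a CATS RNA-seq kit, 1 library per mouse. The authors trimmed reads with cutadapt, mapped them to mm10 with TopHat2 2.1.1, used featureCounts for reads per Gencode gene, and deposited TPM (reads over gene length, set to 1 total in each library). Strand and multi-mapping settings are not given in the sources used here. Gene names were matched for 32799 of 47643 genes.

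Groups came from the sample labels. Genes with a mean of at least 1 TPM (14479) were fitted as log2(TPM + 1) with limma 3.58.1 in R 4.3.3, with a mean-variance trend and 3 groups in 1 fit. Two-sided p-values were adjusted after Benjamini and Hochberg over all 14479 genes, with calls at 0.1. Fold changes are on the log2(TPM + 1) scale, which understates low genes. The fit was also run on simulated data, whose results are not given here. TPM values are whole multiples of what 1 read is worth, and 100% of values above 0 came to whole reads (tolerance 0.05). In the shallowest library 1 read on 1 kb is worth 0.284 TPM. A count of 0 was taken to allow 3 reads, which covers counting error only.

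The 10 members and all lists were chosen with earlier results of these data known. Named were the members, Firre, at most the 4 genes of highest mean TPM in each list, the 10 genes of most similar profile across libraries and within groups, and Cebpe, Gfi1, Cebpa, Csf3r and Spi1. Fcnb, Chil3, Retnlg, Lcn2 and Mmp8 came in through the profile rule, and Mcpt8, Prss34, Ly6g and Stfa3 as cell type markers. Olfm4, Cd177, Pglyrp1, Adam8, Hp, Mmp9, Fpr1, Stfa2l1 and Trem1 were named after their values were seen. Alternatives were other pseudocounts, filters, scalings and fits, each library left out, blocks, and, added after the data were seen, limma-voom on recovered reads, a correction for transcript GC content, and WT 6, ∆Firre 8 and rescue 3 left out together. Protein sequences were not used here, and 1 gene of the mature neutrophil list is not reported here.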

Additional observations from a re-analysis of the deposited data

Results flagged for a closer look

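In each group of 4 libraries, the log2(TPM + 1) of each member was checked for 1 library far from the others (Dixon's test at 95%). Of 30 sets, 5 held such a library. Chance gives about 1 in 20 sets, but the sets are not independent, since all 5 come from WT 6 and ∆Firre 8 and from 3 genes that vary together, so the count is not read against chance. S100a8 was at 0.93 in WT 6 against 7.19 to 8.24 in the other WT libraries, and at 0.37 in ∆Firre 8 against 7.45 to 8.41. S100a9 was at 0.49 in WT 6 against 8.10 to 9.22, and at 0 in ∆Firre 8 against 8.48 to 9.69. Ngp was at 0 in WT 6 against 5.94 to 6.92. Rescue 3 was not singled out by this check for any member.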

How the results depend on the processing

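The number of members called, 0 in ∆Firre against WT and 2 in each rescue comparison, held under every alternative run, 22 in ∆Firre against WT and 20 in each rescue comparison. Ctsg ranged from −1.74 to −1.30 (limma adjusted p 0.00398 to 0.0209) against ∆Firre and from −1.60 to −1.09 (0.00797 to 0.0594) against WT, and Mpo from −0.70 to −0.44 (0.00254 to 0.0792) and from −0.74 to −0.43 (0.00892 to 0.0956). Of 620 member fold changes under alternatives, 545 kept their sign and call and 75 changed sign, all in comparisons where that member was called neither before nor after. The cause was not tested. Without WT 6, ∆Firre 8 and rescue 3 the other granule genes called numbered 1 higher and 7 lower in rescue against ∆Firre and 9 lower in rescue against WT.

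In ∆Firre against WT, the sign changed with a pseudocount of 0.1 for S100a9 (−0.41), with median ratio rescaling for Mpo (0.0091), with quantile normalization for S100a8 (0.023), with WT 6, ∆Firre 8 and rescue 3 left out for S100a8 (0.051), Elane (0.37), Mpo (0.13) and Lyz2 (−0.12), with limma-voom for S100a8 (0.095), Mpo (0.012), Ltf (0.053) and Ngp (0.25), and with the GC correction for Mpo (0.11) and Lyz2 (−8.02e-05). In rescue against ∆Firre it changed for S100a9 with a pseudocount of 0.1 (0.027) and for Camp with limma-voom (−0.60). In rescue against WT it changed for Prtn3 with quantile normalization (0.036) and with the 3 libraries left out (0.042), and for Camp with limma-voom (−0.036). Leaving out 1 library at a time gave these ranges where a sign changed: in ∆Firre against WT, Camp −0.85 to 1.64, Ctsg −0.055 to 0.45, Elane −0.68 to 0.60, Ltf −1.49 to 0.44, Lyz2 −0.26 to 0.14, Mpo −0.13 to 0.068, Ngp −1.78 to 1.45, Prtn3 −0.25 to 0.25, S100a8 −1.80 to 1.75, S100a9 −2.02 to 2.30. The same was found in rescue against ∆Firre, Camp −1.19 to 1.46, Elane −0.50 to 0.98, Ltf −1.57 to 0.021, Ngp −2.57 to 0.29, Prtn3 −0.50 to 0.037, S100a8 −2.79 to 0.74, S100a9 −2.82 to 1.18. Lastly, in rescue against WT, Camp −0.74 to 1.80, Elane −0.26 to 0.70, Ngp −2.76 to 0.15, Prtn3 −0.50 to 0.041, S100a8 −2.74 to 0.64, S100a9 −2.59 to 1.23. Spi1 in rescue against WT ranged from −0.032 to 0.21 with 1 library left out at a time, and up to 0.32 over all alternatives.

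WT and ∆Firre mice share the numbers 8 and 11, but no source says that these mark shared litters or days. With the mouse number as a replicate block, 0 members and 0 genes were called (587 genes at an unadjusted p under 0.05), and S100a9 stood at −4.69, S100a8 at −4.11, Ngp at −3.59, Ltf at −2.45, Camp at −2.39, Elane at −2.17, Lyz2 at −0.49, Prtn3 at −0.46, Mpo at −0.085 and Ctsg at 0.40. Only numbers found in both groups inform this fit, so its fold changes rest on WT 8, WT 11, ∆Firre 8 and ∆Firre 11. The low library ∆Firre 8 enters and the low library WT 6 does not, so these values are not differences between the whole groups. Genes called ranged from 0 to 6 in ∆Firre against WT, from 2461 to 4460 in rescue against ∆Firre and from 1989 to 4349 in rescue against WT. The GC correction (a GC value for 80.9% of genes tested and all 10 members) gave the lowest counts in the rescue comparisons, over 11713 genes, and turned higher genes as a share of all calls from 30.7% to 68.0% and from 19.9% to 65.1%.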

Other observations

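Other marker lists also differ between these libraries, and their part in the granule gene levels was not tested. Of 8 plasma cell genes, 5 were called lower and 2 higher in rescue against ∆Firre, and their sum was 883 to 1644 TPM in WT, 1627 to 3437 TPM in ∆Firre and 307 to 534 TPM in rescue. Eosinophil genes (10) summed to 7.40 TPM in rescue 3, the lowest of all libraries, beside 13 TPM in rescue 4 and 207 and 225 TPM in rescue 2 and 1. They were at 265 TPM in WT 6, the highest of all libraries, and at 221 TPM in ∆Firre 8, inside the ∆Firre range of 105 to 253 TPM. Erythroid genes (8 of 10 matched) summed to 106 to 365 TPM over the 12 libraries, and were lowest of their group in WT 6 (106 TPM) and ∆Firre 8 (159 TPM) but not in rescue 3 (247 TPM), and 1 was called higher in rescue against WT.

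Targets of the antibodies used to exclude mature lineages (8 genes, 4 tested) summed to 170 to 187 TPM in WT, 161 to 196 TPM in ∆Firre and 105 to 131 TPM in rescue, with 2 called lower in each rescue comparison. Ptprc made up most of the sum in WT 6, at 136 of 172 TPM. It was read as a whole gene, not only as the B220 form that the antibody binds, so the sum is not a measure of mature lineage cells. Itgam, the CD11b target, was at 4.37 to 7.07 TPM in rescue and 9.69 to 18.8 TPM in the others.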
